A study of Mus musculus with 4 samples.

Results

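The 10 genes described here, Id4, Nanos2, Nanos3, Zbtb16, Sall4, Lin28a, Sohlh1, Sohlh2, Dmrt1 and Dmrtb1, are regulators of spermatogonial fate, and were taken by their symbols from the 31053 genes of the count matrices. Every one had 1 row in each of the 4 matrices. The libraries were made from cells of the proximal part of the testis, on the side of the rete testis, of C57BL/6 mice at postnatal day 14, when the first wave of germ cells has reached meiosis. A library pooled 3 pups and was made with 10x Genomics 3′ chemistry with 5000 cells as the target. There were 2 control libraries and 2 Sox17-cKO libraries, called control 1, control 2, Sox17-cKO 1 and Sox17-cKO 2 below, and sets of 4 values follow that order. The Sox17-cKO mice carried SF1Cre and Sox17 flox/flox. The labels give the controls as SF1Cre, whereas the methods of the study describe Sox17 flox/flox littermates without the transgene, so the alleles that both groups shared cannot be settled here. SF1Cre is driven by sequences of Nr5a1, a gene of the gonadal somatic lineage, and is not a germ cell driver. Supernatant that held interstitial cells was discarded between the collagenase and the trypsin digestion, so the proportions of cell types are those of the preparation.

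Spermatogenesis begins with a small pool of undifferentiated spermatogonia that either renew themselves or move on to differentiate. Factors found in undifferentiated spermatogonia include the HLH protein ID4, the RNA-binding proteins NANOS2 and LIN28A and the zinc finger proteins PLZF (Zbtb16) and SALL4. Differentiation needs the bHLH factors SOHLH1 and SOHLH2 and the DM domain proteins DMRT1 and DMRT6 (Dmrtb1). These act in differentiating spermatogonia up to the entry into meiosis.

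bHLH proteins bind the E-box, the hexamer CANNTG, and ID4 is a HLH protein without a DNA-binding basic region. The promoters of the bHLH genes and of the members with an E-box at the start site are therefore shown, so that the letters can be read beside the stage profiles. Each is the 250 bases before the RefSeq start site on GRCm38.p6, 5′ to 3′ on the strand of the gene, with every CANNTG in capitals. The windows are chr2:25847249-25847498 (minus strand) for Sohlh1, chr3:55181794-55182043 (plus strand) for Sohlh2, chr8:84176553-84176802 (minus strand) for Nanos3 and chr4:107684231-107684480 (minus strand) for the start site of Dmrtb1 that matches the gene end in the annotation.
Sohlh1: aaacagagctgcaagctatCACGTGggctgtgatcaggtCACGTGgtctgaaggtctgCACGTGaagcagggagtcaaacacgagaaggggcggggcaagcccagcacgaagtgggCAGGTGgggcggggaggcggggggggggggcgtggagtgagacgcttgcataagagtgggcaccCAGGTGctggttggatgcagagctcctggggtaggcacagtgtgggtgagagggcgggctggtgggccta
Sohlh2: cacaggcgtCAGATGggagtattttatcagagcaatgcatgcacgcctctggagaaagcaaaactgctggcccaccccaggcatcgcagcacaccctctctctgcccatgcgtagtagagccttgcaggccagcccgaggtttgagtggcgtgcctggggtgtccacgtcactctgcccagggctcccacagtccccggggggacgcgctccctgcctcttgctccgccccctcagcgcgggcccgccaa
Nanos3: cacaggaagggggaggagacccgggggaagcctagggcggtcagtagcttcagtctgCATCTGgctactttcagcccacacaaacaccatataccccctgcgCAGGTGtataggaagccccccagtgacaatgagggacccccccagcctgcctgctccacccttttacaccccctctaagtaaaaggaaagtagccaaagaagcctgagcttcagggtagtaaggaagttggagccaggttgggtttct
Dmrtb1: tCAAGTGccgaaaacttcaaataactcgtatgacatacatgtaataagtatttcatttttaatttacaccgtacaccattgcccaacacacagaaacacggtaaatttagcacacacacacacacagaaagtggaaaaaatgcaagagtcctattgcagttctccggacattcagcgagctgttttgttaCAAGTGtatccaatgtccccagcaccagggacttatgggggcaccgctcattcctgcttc

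The Sohlh1 window held 5 CANNTG, of which 3 were the palindrome CACGTG, at 231, 211 and 192 bases before the start. Over the 32851 promoter windows of the RefSeq table, 66.2% held at least 1 CANNTG and the median was 1 per window. Windows with 5 or more made up 1.15%, windows with a CACGTG 6.02%, and windows with 3 or more CACGTG 0.0609%. Nanos3 and the Dmrtb1 window shown held 2 CANNTG each and Sohlh2 held 1. The window of the other Dmrtb1 start site in the table, chr4:107683590-107683839, held 3, while the windows of Id4, Nanos2 and Lin28a held none. CANNTG reads the same on both strands, so 1 search covered both. Zbtb16, Sall4 and Dmrt1 had no entry in the table. A match describes these letters only, and binding was not measured.

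The matrices held 46001 barcodes and between 89969877 and 107203219 UMIs (unique molecular identifiers, 1 per captured transcript) a library. Of these, 22567 barcodes had 1000 to 4500 detected genes and were kept. The methods of the study also name a limit of 1% mitochondrial reads, which would leave 212 of those cells, so it was not applied. Sox17, the targeted gene, was read in the rete testis-like cells, with 94 UMIs (356 CPM, UMIs per 1000000 UMIs of the summed cells) in control 1, 180 UMIs (312 CPM) in control 2, 11 UMIs (45.5 CPM) in Sox17-cKO 1 and 23 UMIs (34.6 CPM) in Sox17-cKO 2, so the libraries went with their labels. In endothelial-like cells it was also lower in the Sox17-cKO libraries, at 508, 344, 102 and 101 CPM from 33, 62, 10 and 18 UMIs. Sox17 is also a marker that named the rete testis-like cells, and whether its 3′ reads lie in the deleted part is not given in the sources used here. In germ-like cells Sox17 had 0 to 10 UMIs a library. Scrublet marked no doublet in either library of replicate number 1 and 2.22% and 3.0% of barcodes in the others, so it did not work in every library and its calls were not used. Any pair of libraries shared 7 to 9 of the barcodes kept.

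Germ-like cells numbered 8393, and were clustered again with the 10 members left out of the genes used. Clusters were named by marker lists as undifferentiated spermatogonia (693 cells), early differentiating spermatogonia (502), late differentiating spermatogonia (842), preleptotene (805), leptotene and zygotene (844) and pachytene spermatocytes (552), and each name stands for cells that are like that stage. The rules for naming were set after the clusters had been seen, and 4155 germ-like cells stayed unnamed, 1065 of them in a cluster whose markers lay between early and late differentiating spermatogonia. A stage had 45 to 382 cells a library. The upper limit on detected genes set these numbers in part. Without it, undifferentiated spermatogonia numbered 645, 296, 511 and 310 in the 4 libraries, against 382, 45, 175 and 91 with it. All staged cells numbered 7954 without it, against 4238. Pachytene cells were fewer without it, at 128, 40, 97 and 23 against 242, 82, 158 and 70. Levels and shares by stage below are those of cells under the limit, unless stated. The marker list of the undifferentiated stage (Gfra1, Ret, Etv5 and others, 10 genes) summed to 621 to 840 CPM in its own cells and to 149 to 165 CPM in the next stage. The pachytene list (Piwil1, Hspa2, Ldhc and others) summed to 1392 to 2128 CPM in its own cells and to 460 to 620 CPM in leptotene and zygotene cells. Other lists parted the stages less well. The early differentiating list summed to 561 to 673 CPM in its own cells, 420 to 464 CPM in late differentiating and 371 to 481 CPM in preleptotene cells. The preleptotene list summed to 1634 to 1804 CPM in its own cells. It was at 306 to 712 CPM in early and at 195 to 333 CPM in late differentiating spermatogonia, so it did not rise evenly along the order. The late differentiating list summed to 1185 to 1904 CPM in its own cells, to 1101 to 1536 CPM in early differentiating spermatogonia and to 939.9 to 1872 CPM in the preleptotene stage. The leptotene and zygotene list summed to 1968 to 2273 CPM in its own cells and to 1698 to 2212 CPM in pachytene cells, so these ranges overlapped. Because the stages come from the same cells, the steps between them do not test the staging. Each step compares the size of a change with how unevenly the 4 libraries changed over the stages, after the level of each library was fitted. A p-value of a step covers only that spread. In the genotype comparisons a p-value covers only the spread between the 2 libraries of each genotype.

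**Figure D1:**
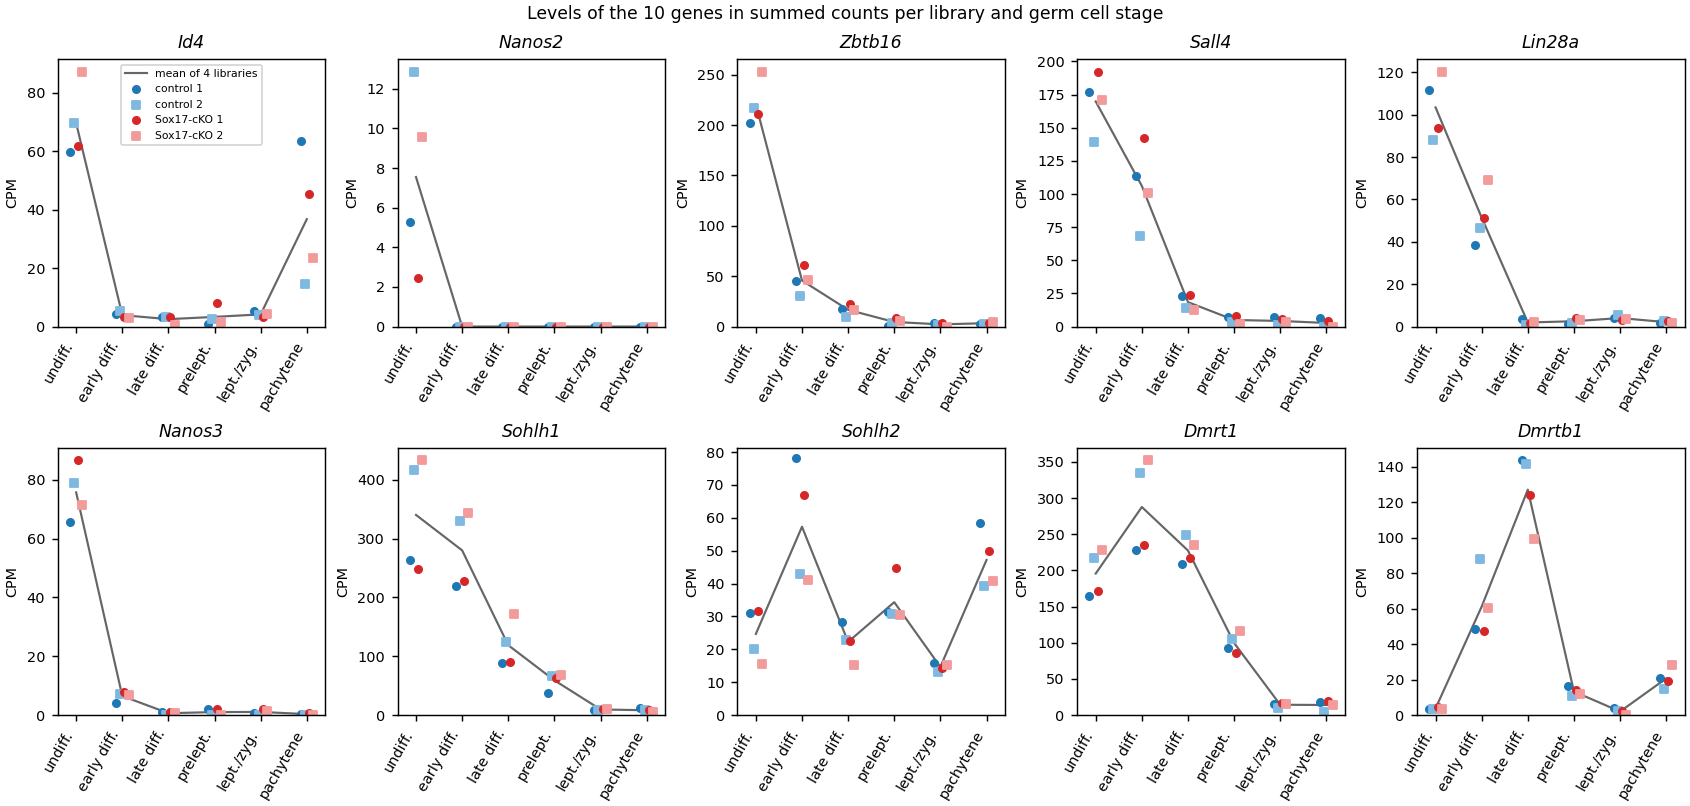
Level of each of the 10 genes (CPM, vertical axis, 1 panel a gene with its own scale) in the 6 germ cell stages (horizontal axis), with 1 point a library and a line through the mean of the 4 libraries. Zbtb16, Nanos3 and Lin28a start high and fall, Dmrtb1 reaches its top in late differentiating spermatogonia, and Id4 and Sohlh2 rise again in pachytene cells.

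Id4, Nanos2, Nanos3 and Zbtb16 had their largest loss at the first step. Id4, whose product binds E proteins and keeps them from DNA, was at 59.7 and 69.8 CPM in the undifferentiated spermatogonia of controls 1 and 2, and at 61.6 and 87.2 CPM in Sox17-cKO 1 and 2. In early differentiating spermatogonia it was at 4.18, 5.38, 3.12 and 2.93 CPM in the same order, so every library had lost nearly all of it in the first step. The log2 fold change was -4.26 ± 0.32 (SE, adjusted p = 1.3e-15, edgeR quasi-likelihood test with Benjamini-Hochberg adjustment, as in all steps below). Reads of Id4 may include its opposite-strand neighbours A330033J07Rik and Gm49291 if strand was not used in counting.

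Nanos2, an RNA-binding protein that recruits the deadenylase complex to its targets and maintains stem spermatogonia, was sparse. It had 24, 7, 5 and 11 UMIs (5.29, 12.9, 2.45 and 9.59 CPM) in the undifferentiated spermatogonia of the 4 libraries. The 47 UMIs lay in 41 of the 693 cells of that stage under the upper limit on detected genes, or 5.92%. No UMI of Nanos2 was counted in any of the 5 later stages. Set against the floor of 3 counts over all libraries, its level in undifferentiated spermatogonia was at least 10.9-fold higher than in early differentiating spermatogonia and at least 57.4-fold higher than in the 5 later stages together. It did not pass the filter on low counts, so the steps have no test for it. Gm45058 overlaps Nanos2 on the opposite strand.

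Nanos3, the relative of Nanos2 that is needed for the survival of primordial germ cells, was lost almost as sharply as Id4. Its levels of 65.7, 79.0, 86.6 and 71.5 CPM fell to 4.18, 7.17, 7.79 and 6.83 CPM in early differentiating spermatogonia, and no library overlapped (-3.75 ± 0.24, adjusted p = 8.4e-18). A further fall of 3.06 ± 0.57 (adjusted p = 9.6e-06) followed in late differentiating spermatogonia, where no library exceeded 1.05 CPM. It rests on 33 UMIs in early and 5 UMIs in late differentiating spermatogonia over the 4 libraries, so its size is poorly set. The early level was above that of Sertoli-like cells (0.223 to 2.43 CPM). It overlapped that of peritubular myoid-like cells (1.71 to 7.61 CPM).

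Zbtb16 encodes PLZF, a transcriptional repressor that marks the undifferentiated pool. It was at 202, 217, 211 and 253 CPM in undifferentiated spermatogonia, then at 45.7, 30.5, 60.8 and 45.9 CPM in early and at 17.8, 9.35, 22.5 and 16.7 CPM in late differentiating spermatogonia. It fell by 2.31 ± 0.14, then 1.54 ± 0.20, then 1.64 ± 0.31 on the log2 scale (adjusted p = 9.2e-19, 3.8e-09 and 1.5e-05) over the first 3 steps. The difference in leptotene and zygotene cells was -1.08 ± 0.51 (unadjusted p = 0.0378, adjusted p = 0.0658), which did not pass the threshold. With each library left out in turn, 4 to 5 members passed at that step, against 4 with all libraries.

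Sall4 and Lin28a were held longer. Sall4, a zinc finger factor shared by pluripotent and germ cells, was at 177, 139.6, 192 and 171 CPM in undifferentiated spermatogonia and still at 113, 68.1, 143 and 100.5 CPM in early differentiating spermatogonia. The largest fall came at the next step, to 23.3, 14, 23.5 and 12.8 CPM in late differentiating spermatogonia. The log2 fold changes were -0.77 ± 0.12, -2.55 ± 0.16 and, into the preleptotene stage, -1.79 ± 0.30 (adjusted p = 8.7e-07, 3.5e-18 and 1.3e-06). Gm14261 overlaps Sall4 on the opposite strand.

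Lin28a, whose protein blocks maturation of let-7 microRNAs, was at 112, 88.2, 93.9 and 120.3 CPM in undifferentiated and at 38.3, 46.6, 51.4 and 69.3 CPM in early differentiating spermatogonia. In late differentiating spermatogonia only 3.66, 0.520, 1.57 and 1.92 CPM were left. The log2 fold change was -1.21 ± 0.14 at the first step and -4.61 ± 0.28 at the second (adjusted p = 1.3e-09 and 5.5e-19), so the second step was the steeper one in each library. Gm13061 lies opposite Lin28a. As a share of its own highest mean, Lin28a stood at 49.7% in early differentiating spermatogonia, beside 62.5% for Sall4, 20.7% for Zbtb16, 8.58% for Nanos3 and 5.61% for Id4. The 50% line itself divides the libraries for Lin28a, since the last stage at or above it was the undifferentiated stage in 1 of 4 libraries and a later stage in the others.

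**Figure D2:**
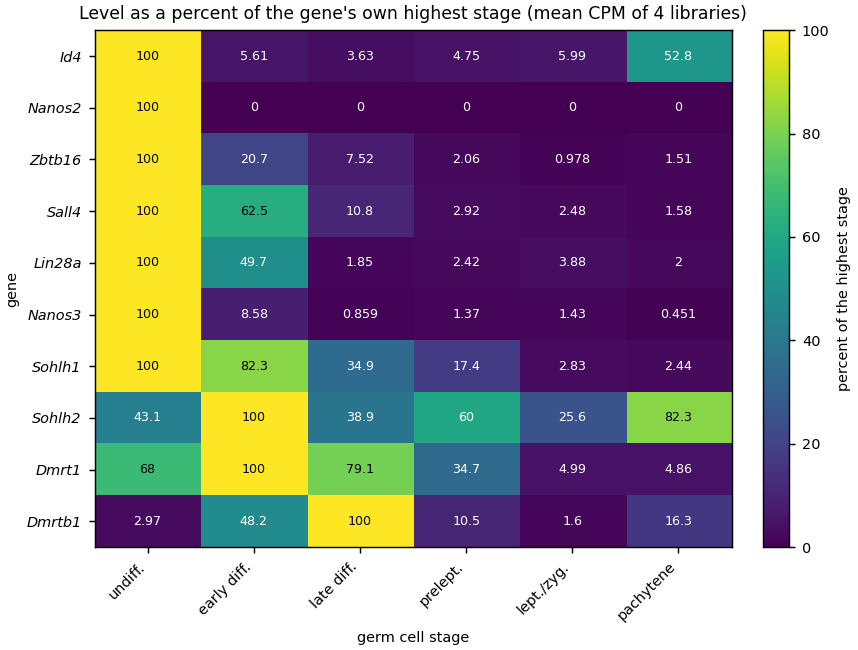
Mean level over the 4 libraries of each gene (vertical axis, genes) in each of the 6 stages (horizontal axis), as a percentage of the gene's own highest mean, with the percentage printed in the cell. The cells at 100% move from undifferentiated spermatogonia for Id4, Nanos2, Nanos3, Zbtb16, Sall4, Lin28a and Sohlh1 to early differentiating spermatogonia for Sohlh2 and Dmrt1 and to late differentiating spermatogonia for Dmrtb1.

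The differentiation factors followed. Sohlh1, the bHLH factor whose promoter held the 5 E-boxes shown above, was already at its highest in undifferentiated spermatogonia, with 263, 417, 248 and 433 CPM. It remained at 219, 329.7, 228 and 344 CPM in early differentiating spermatogonia. Both libraries of replicate number 2 were above both of number 1 in each of these stages. It was then at 89.2, 124, 91.0 and 171 CPM in late differentiating spermatogonia, at 37.6, 67.2, 63.2 and 68.8 CPM in the preleptotene stage and at 8.37, 8.18, 11.2 and 10.9 CPM in leptotene and zygotene cells. The successive log2 fold changes were -0.37 ± 0.10, -1.30 ± 0.11, -0.87 ± 0.13 and -2.56 ± 0.20 (adjusted p = 0.00154, 1.6e-14, 9.2e-08 and 9.1e-15). The small first one was lost without integration of the libraries (-0.23, adjusted p = 0.242) and without the upper limit on detected genes (-0.19, adjusted p = 0.293). Without integration the early differentiating stage held only 8 and 7 cells in control 2 and Sox17-cKO 2, against 53 and 85 with it. The last levels overlapped those of Sertoli-like cells, at 13.1, 8.39, 18.7 and 10.1 CPM.

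Sohlh2, the dimerization partner of SOHLH1, had another profile. It was at 31.1, 20.2, 31.8 and 15.7 CPM in undifferentiated spermatogonia and at 78.1, 43.0, 67.0 and 41.0 CPM in early differentiating spermatogonia, its top in all 4 libraries. It fell in late differentiating spermatogonia (28.3, 22.9, 22.5 and 15.4 CPM), rose in the preleptotene stage (31.5, 30.6, 44.8 and 30.5 CPM), fell again (16, 13.1, 14.4 and 15.2 CPM) and rose in pachytene cells to 58.5, 39.4, 49.8 and 40.9 CPM. The log2 fold changes of the 5 steps were 1.1 ± 0.15, -1.44 ± 0.15, 0.74 ± 0.17, -1.20 ± 0.19 and 1.68 ± 0.19 (adjusted p = 4.5e-08, 4.4e-11, 0.000163, 4.8e-07 and 7.2e-11). Every step passed the threshold, and the sign alternated.

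Dmrt1, the DM domain factor that restrains meiotic entry in spermatogonia, stayed high through all 3 spermatogonial stages. It was at 165, 217, 172 and 228 CPM in undifferentiated spermatogonia, at 228, 335, 235 and 352 CPM in early differentiating spermatogonia and at 209, 249, 218 and 235 CPM in late differentiating spermatogonia. It then fell to 92.5, 105.5, 85.3 and 116 CPM in the preleptotene stage and to 15.2, 9.27, 17.0 and 15.9 CPM in leptotene and zygotene cells. The falls of 1.13 ± 0.11 and 2.71 ± 0.17 on the log2 scale were the large steps (adjusted p = 3.5e-12 and 8.9e-18). The small rise at the first step (0.43 ± 0.10, adjusted p = 0.00064) was lost without the upper limit on detected genes (0.32, adjusted p = 0.0671). The small fall at the second (-0.35 ± 0.10, adjusted p = 0.00286) was lost when the library Sox17-cKO 2 was left out (-0.23, adjusted p = 0.0916). The level was higher in early than in late differentiating spermatogonia in each of the 4 libraries. The call was also lost without integration, without the upper limit on detected genes and without the filter on low counts.

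Dmrtb1 encodes DMRT6, which acts in the switch from the mitotic to the meiotic programme. It was at 3.53, 3.67, 4.41 and 3.49 CPM in undifferentiated spermatogonia, at 48.8, 87.8, 47.6 and 60.5 CPM in early and at 144, 141, 124 and 99.4 CPM in late differentiating spermatogonia. It dropped to 16.3, 10.9, 14.2 and 11.7 CPM in the preleptotene stage. Among the named stages its peak lay in the late differentiating stage in all 4 libraries, 1 stage after those of Sohlh2 and Dmrt1. The unnamed cluster between early and late differentiating spermatogonia is not in that order. Its mean Dmrtb1 was 133 CPM, against 127 CPM in the late differentiating stage. The log2 fold changes of Dmrtb1 were 3.76 ± 0.25, 1.12 ± 0.14, -3.20 ± 0.18 and -2.56 ± 0.40 (adjusted p = 3.2e-17, 2.6e-09, 1.1e-20 and 5.0e-07). The last rests on 13 UMIs in leptotene and zygotene cells over the 4 libraries. It was -0.27 (adjusted p = 0.379) without the upper limit on detected genes. There the leptotene and zygotene stage took in other cells, 314 to 592 a library against 180 to 248 with the limit.

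A later rise was seen within meiosis. Id4, Dmrtb1 and Sohlh2 rose from leptotene and zygotene cells to pachytene cells. Id4 went from 5.32, 3.82, 3.19 and 4.35 CPM to 63.5, 14.4, 45.4 and 23.6 CPM (3.28 ± 0.34, adjusted p = 1.1e-11), and in control 1 its pachytene level was above its undifferentiated level. Dmrtb1 went from 3.80, 2.18, 2.13 and 0 CPM to 20.7, 14.4, 19.2 and 28.3 CPM (3.27 ± 0.38, adjusted p = 2.8e-10). Its level in leptotene and zygotene cells rested on 13 UMIs in 844 cells and overlapped that of Sertoli-like cells (1.78 to 5.09 CPM). The size of the Dmrtb1 rise is thus poorly set, while its pachytene level lay above that range in every library. Genes of Sertoli cells (Sox9, Amh, Rhox8, Cldn11, Defb36 and Aard) summed to 967, 152, 1075 and 135 CPM in the pachytene cells of the 4 libraries, against 7517, 7609, 7246 and 6388 CPM in Sertoli-like cells. Id4 was at 24.3, 34.9, 44.0 and 41.4 CPM in Sertoli-like cells, and its pachytene level was highest in the libraries where the Sertoli list was highest. The Sertoli list was at 721, 97.6, 495 and 109 CPM in leptotene and zygotene cells, so it too was higher in the pachytene cells of each library. Its part in the Id4 rise was not tested.

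**Figure D3:**
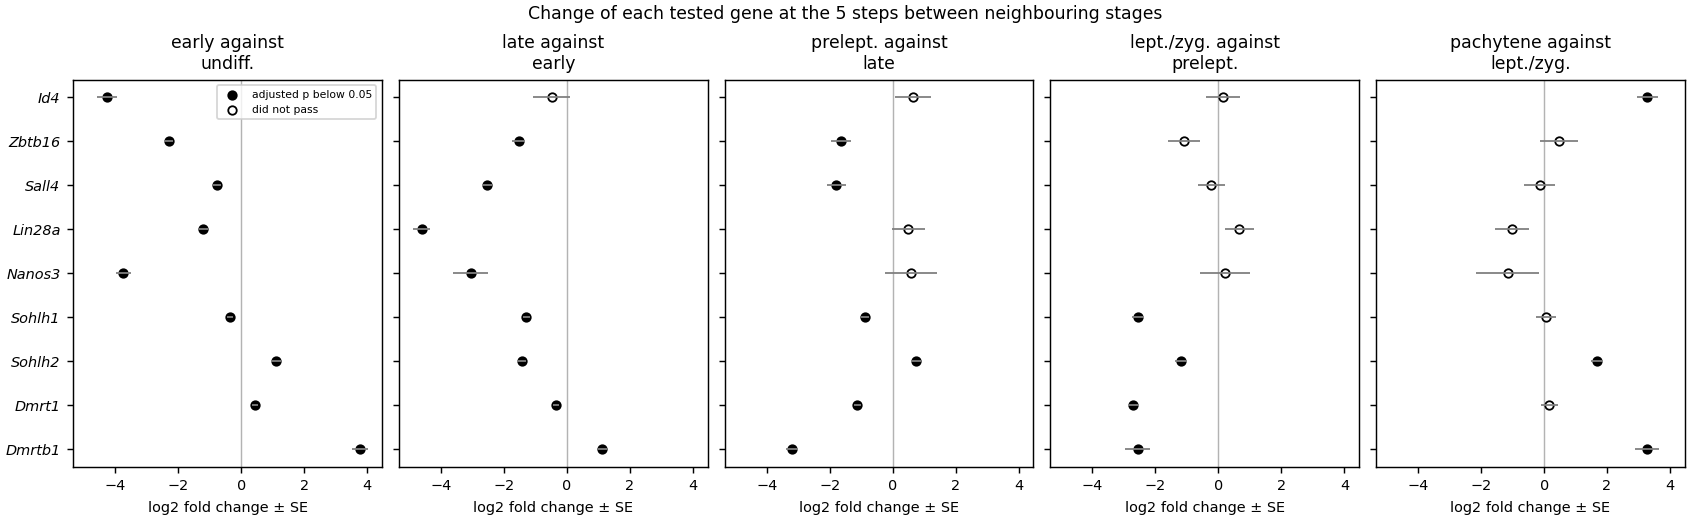
Log2 fold change with its SE (horizontal axis) of the 9 members tested (vertical axis) in 1 panel for each of the 5 steps between neighbouring stages, with filled points for an adjusted p below 0.05. Falls make up most of the first 4 panels, Dmrtb1 lies to the right of 0 in the first 2, and Id4, Dmrtb1 and Sohlh2 lie to the right with filled points in the last.

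Counted over the members, 9 of the 10 could be tested at each step. At the first step 3 rose and 6 fell, while 22.9% of the 10829 genes tested rose and 24% fell. At the second 1 rose and 7 fell (28.4% and 30.1% of all genes), at the third 1 rose and 5 fell (29.6% and 27.3%), at the fourth none rose and 4 fell (28.2% and 27.1%) and at the last 3 rose and none fell (27.7% and 27.7%). The median log2 fold change of the members was -0.77, -1.44, -0.87, -1.08 and 0.17 in turn, with medians over all genes between -0.01 and 0.02. All 9 members were thus past the threshold at the entry into differentiation. Lin28a and Nanos3 had reached their low levels by the late differentiating stage, and neither passed the threshold at a later step.

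Partners of these proteins were read from a list of 33 genes, of which 29 could be tested. At the first step 8 rose and 11 fell, with 22.9% and 24% of all genes rising and falling there. The median log2 fold change of the partners was -0.25, -0.27, -0.22, -0.14 and -0.18 at the 5 steps in turn. Lhx8, a LIM homeobox gene, rose by 3.52 ± 0.33, and Id2 and Id1, the relatives of Id4, rose by 2.10 ± 0.33 and 1.4 ± 0.29 on the log2 scale while Id4 fell. Ddit4, an inhibitor of mTORC1 signalling, fell by 3.70 ± 0.27, Sall1 by 2.15 ± 0.30 and Neurog3, a bHLH gene of progenitor spermatogonia, by 1.85 ± 0.33. All of them passed the threshold (adjusted p from 4.0e-16 to 8.1e-05).

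At the second step 9 partners rose and 13 fell (28.4% and 30.1% of all genes). Zcchc6, which encodes the terminal uridylyltransferase TUT7 that acts with LIN28A on let-7 precursors, rose by 3.30 ± 0.18 as Lin28a fell. Ddit4 rose by 1.87 ± 0.32 and Dmrtc2, a DM domain gene of meiotic cells, by 1.16 ± 0.31. Utf1 fell by 4.20 ± 0.59, Lhx8 by 4.0 ± 0.35 and Figla, a bHLH gene best known from oocytes, fell by 2.36 ± 0.26.

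At the third step 5 partners rose and 9 fell (29.6% and 27.3% of all genes). Figla rose by 3.57 ± 0.22, Dmrtc2 by 2.44 ± 0.18 and Taf4b, a germ cell subunit of TFIID, by 1.25 ± 0.10. Pou5f1 fell by 1.89 ± 0.73, Dnd1, an RNA-binding partner of NANOS2, by 1.19 ± 0.14 and Tcf3, which encodes an E protein, by 1.11 ± 0.11.

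The last 2 steps each had 6 partners that rose and 10 that fell, where 28.2% and 27.1% of all genes rose and fell at the first of them and 27.7% and 27.7% at the other. At the fourth, Tcf4 rose by 0.95 ± 0.22, Zcchc6 by 0.88 ± 0.10 and Dmrtc2 by 0.64 ± 0.13, while Dnd1 fell by 2.22 ± 0.25, Dmrt3 by 2.15 ± 0.54 and Sox3 by 2.03 ± 0.20. At the last, Id1, Dnd1 and Tcf4 rose by 1.47 ± 0.43, 1.47 ± 0.30 and 1.26 ± 0.17, while Figla, Nanos1 and Taf4b fell by 3.92 ± 0.33, 1.83 ± 0.60 and 1.81 ± 0.11. Id1 thus rose with Id4 at this step, whereas both had moved in opposite directions at the first.

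The undifferentiated stage was not uniform. At a finer resolution it divided into a cluster of 463 cells led by Sdc4, Egr4 and Tubb5 and one of 230 cells led by Gfra1, Nefm, Tcl1 and Ccnd2, a comparison that was added after the data had been seen. Gfra1 encodes the receptor for GDNF, the niche factor for stem spermatogonia. Id4 was at 128, 110.2, 128 and 167 CPM in the Gfra1 cluster and at 31.2, 36.8, 34.0 and 46.2 CPM in the Egr4 cluster, with no overlap. Its log2 fold change was 1.85 ± 0.14 (adjusted p = 5.6e-19).

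Sohlh1, Lin28a, Nanos3 and Dmrt1 were lower in the Gfra1 cluster by 1.38 ± 0.10, 1.24 ± 0.14, 0.99 ± 0.16 and 0.72 ± 0.11 on the log2 scale (adjusted p from 1.3e-20 to 7.6e-07). Thus 1 of 8 members tested was higher and 4 were lower, beside 11.3% and 12% of 7400 genes. Sall4, Zbtb16 and Sohlh2 differed by 0.24 ± 0.10, -0.17 ± 0.10 and -0.51 ± 0.24, which did not pass the threshold (adjusted p = 0.0759, 0.230 and 0.124). Nanos2 had 4 to 11 UMIs a library in the Gfra1 cluster (8.25, 16.3, 6.65 and 10.3 CPM) and 1 to 13 in the Egr4 cluster (4.06, 10.0, 0.693 and 9.25 CPM), too few for a test. Id4 thus differed between the clusters in the opposite direction to Lin28a and Nanos3, although all 3 fell when the stage was left.

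**Figure D4:**
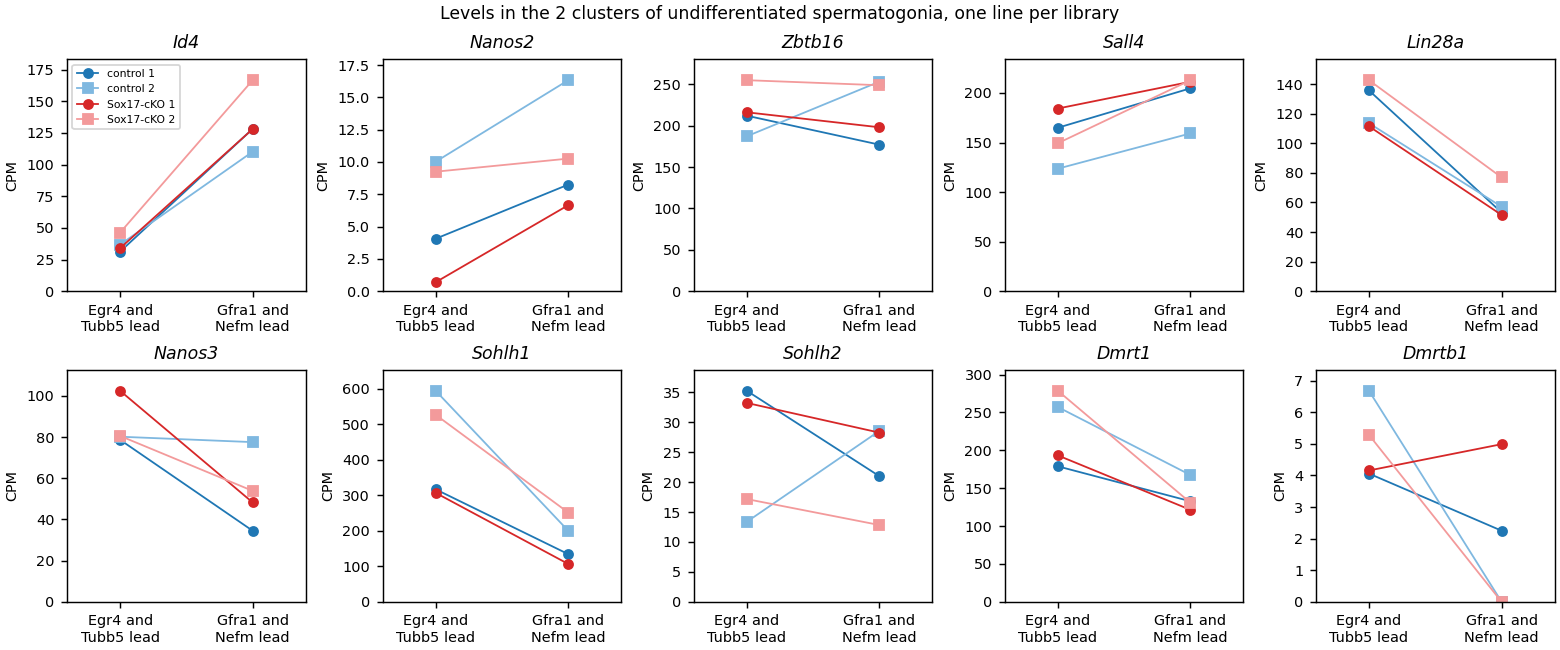
Level of each gene in CPM (vertical axis, 1 panel a gene with its own scale) in the clusters of undifferentiated spermatogonia led by Egr4 and Tubb5 and by Gfra1 and Nefm (horizontal axis), with 1 point and line a library. The Id4 lines rise and the Sohlh1, Lin28a and Dmrt1 lines fall in all 4 libraries, while the Zbtb16 and Sohlh2 lines cross.

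Shares of cells with a UMI were read beside the levels. After thinning every cell to 2000 UMIs, Sohlh1 was detected in 33.1 to 51.1% of undifferentiated spermatogonia a library, in 18 to 33.1% of late differentiating cells and in 1.42 to 2.99% of leptotene and zygotene cells. In Sertoli-like cells, which should lack it, the share was 2.21 to 4.63%, so the share in leptotene and zygotene cells is read as background. Before thinning the shares were 84.0 to 97.8%, 47.0 to 79.9%, 5.39 to 7.78% and 4.77 to 8.64%, at median depths of 12040 to 13496, 7647 to 10470, 5814 to 7950 and 3218 to 5562 UMIs. Dmrtb1 was found in 0 to 1.71% of thinned undifferentiated cells and in 19.5 to 26.3% of late differentiating cells, against 0.457 to 0.859% of Sertoli-like cells. The share of Id4 was 0 to 1.11% in leptotene and zygotene cells and 2.50 to 10.2% in pachytene cells, with no overlap, and 4.69 to 7.73% in Sertoli-like cells, which express it. Cells under 2000 UMIs were left out, from none in undifferentiated spermatogonia to 23 in pachytene cells and 635 in Sertoli-like cells.

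Outside the germ line the members parted. In germ-like against Sertoli-like cells, 8 of 9 members tested were higher and 1 was lower, while 41.7% and 37.8% of 13705 genes were. Dmrtb1, Zbtb16, Sall4 and Sohlh1 led, at 3.70 ± 0.27, 3.26 ± 0.15, 3.18 ± 0.14 and 3.09 ± 0.28 on the log2 scale (adjusted p from 3.9e-05 to 9.9e-05). Dmrt1, which also maintains the male fate of Sertoli cells, was only 0.79 ± 0.09 higher (adjusted p = 0.000275), with 68.5, 77.1, 62.0 and 94.5 CPM in Sertoli-like cells. Id4 was lower in germ-like cells by 1.66 ± 0.36 (adjusted p = 0.00486). The germ-like class pools all stages and the unnamed cells, so these values are not those of spermatogonia. In undifferentiated spermatogonia Id4 was at 59.7 to 87.2 CPM, above the 24.3 to 44.0 CPM of Sertoli-like cells. Dmrt1 was at 165 to 228 CPM there and at 228 to 352 CPM in early differentiating spermatogonia.

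The highest Id4 of any cell class was in the rete testis-like cells, at 163, 241, 132 and 189.5 CPM, from 36, 73, 33 and 86 cells. Libraries of both genotypes overlapped there. Peritubular myoid-like cells followed with 48.2, 70.0, 56.0 and 52.8 CPM. Zbtb16 was at 20.1 to 28.3 CPM in peritubular myoid-like cells, its highest class outside germ cells. Outside germ-like cells Nanos2 was at or under the floor of 3 counts in the classes named here.

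**Figure D5:**
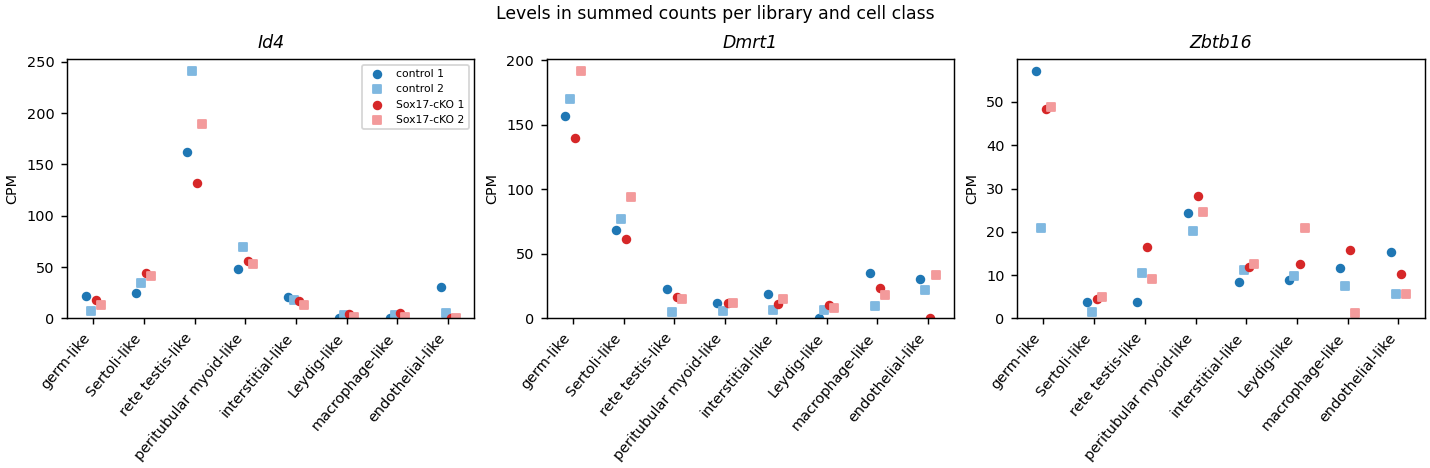
Level in CPM (vertical axis) of Id4, Dmrt1 and Zbtb16 in the 8 cell classes (horizontal axis), with 1 point a library. Id4 is highest in rete testis-like cells, Dmrt1 is highest in germ-like and then in Sertoli-like cells, and Zbtb16 follows its germ-like level with peritubular myoid-like cells.

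The question of the study was the effect of losing Sox17 from the rete testis, and the members were compared between Sox17-cKO and control libraries within each stage. No member passed the threshold at any stage or over all staged germ cells, and 0% of the 7855 to 13333 genes tested did so. At an unadjusted p under 0.05 there were 10 to 58 genes and none of the members, and DESeq2 also called no gene. With the replicate number as a block the fit called 3 to 26 genes in each comparison and none of the members. Fitted differences for the 34 pairs of member and stage lay between -0.46 and 0.52 on the log2 scale, and the SE of the largest in each stage was 0.30 to 0.78.

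The member with the largest difference was Nanos2 in undifferentiated spermatogonia (-0.46 ± 0.78), Lin28a in early (0.52 ± 0.32) and Zbtb16 in late differentiating spermatogonia (0.52 ± 0.39), Sohlh1 in the preleptotene stage (0.27 ± 0.30), and Dmrt1 in both leptotene and zygotene (0.42 ± 0.41) and pachytene cells (0.50 ± 0.66). Over all staged germ cells it was Nanos2 (-0.47 ± 0.80). The ranges with each library left out in turn follow in the same order. They were -1.59 to 0.38, 0.24 to 0.76, 0.15 to 1.06, -0.060 to 0.78, 0.10 to 0.77, -0.043 to 2.06 and -1.51 to 0.22. In this fit without a block, single libraries thus set their size and, for Nanos2, Sohlh1 and Dmrt1 in pachytene cells, their sign. Leaving 1 library out also makes the replicate numbers unequal between genotypes. Within each replicate number, Nanos2 in undifferentiated spermatogonia was lower in the Sox17-cKO library, on few UMIs. Sohlh1 in the preleptotene stage and Dmrt1 in pachytene cells were higher in it. With all libraries, the adjusted p was at least 0.9996 for each member named. With SEs of this size, differences of this order were not detectable in the fit without a block for the replicate number, with 2 libraries a genotype. A test of whether any step differed between genotypes, added after the data had been seen, called no member, and 0.00923% of 10829 genes at the first step and 0% at each later step.

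Values also differed by replicate number. In undifferentiated spermatogonia 7 of 9 members tested had no overlap between the libraries of number 1 and number 2, beside 57.7% of 9775 genes. Sohlh1, Nanos2, Zbtb16, Id4 and Dmrt1 were higher in number 2, and Sall4 and Sohlh2 were lower. The direction was not the same at each stage. Zbtb16 was lower in number 2 in late differentiating spermatogonia, where 4 of 6 members had no overlap (60.9% of all genes), and Id4 and Dmrt1 were lower in pachytene cells, where 3 of 4 had none (59.5%). In early differentiating spermatogonia 5 of 7 members had no overlap (56%), in the preleptotene stage 5 of 5 (56.8%), and in leptotene and zygotene cells 0 of 3 (59.3%). The number goes with the Cell Ranger version in the file headers, 6.0.2 for number 1 and 6.1.2 for number 2, and the 2 cannot be told apart. The Sertoli list moved with the number too, at 209.6, 60.6, 195 and 67.1 CPM in undifferentiated spermatogonia, and its part in these differences was not tested. Among the named stages, the one with the highest level was the same in all 4 libraries for every member except Id4.

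For each member the genes with the most similar profile over the 24 sums of library and stage were found by Pearson correlation, as a description, since these sums share libraries and stages. Nanos2 was most like Gfra1 (r = 0.97), itself a marker that named the stage, then Rpl17 and Ccdc141. Nanos3 was most like Egr4 (0.97), also such a marker, then Zfp462 and Sdc4. Lin28a was most like Rhox10 (0.98), then Ccnd2 and Trim71, and Sall4 like Cxxc5 (0.98), Cox8a and 1110008F13Rik. Zbtb16 was most like Nufip1 (0.98), Rpl14 and Lifr, and Id4 like Dppa4 (0.93), Psmd7 and Aplp1.

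Sohlh1 was most like Nit2 (0.99), Phb and Rab6b, and Dmrt1 like Mt2 (0.99), Mif and Rftn1. Dmrtb1 was most like Tmem56 (0.95), Mlf2 and Twsg1, and Sohlh2, with its alternating profile, had the lowest best match, Pcgf5 (0.83), then Ndufa8. Among the members themselves the closest pairs were Sohlh1 with Dmrt1 (0.95), Sall4 with Sohlh1 (0.92) and, at the same value, Lin28a with Nanos3 and Zbtb16 with Sall4 (0.91).

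The genes lie apart in the genome (GRCm38, GENCODE vM21), and the 3′ reads count the whole gene. Sohlh1 spans chr2:25842995-25847248 with 8 exons and Sall4 chr2:168748332-168767943 with 4, both on the minus strand, and Sohlh2 spans chr3:55182028-55209957 with 11 exons on the plus strand. Dmrtb1 (chr4:107676290-107684230, 4 exons) and Lin28a (chr4:134003330-134018841, 4 exons) share chromosome 4, both on the minus strand. Nanos2 (chr7:18987400-18988962) is a single exon on the plus strand, and Nanos3 (chr8:84173731-84185217, 2 exons, minus strand) holds the microRNA genes Mir181c and Mir181d on its own strand. Zbtb16 spans chr9:48654297-48836222 with 7 exons on the minus strand, Id4 chr13:48261228-48266026 with 3 and Dmrt1 chr19:25505618-25604329 with 5, both on the plus strand.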

How the data were processed

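Raw UMI counts per gene and barcode had been made and deposited by the authors with Cell Ranger (6.0.2 for replicate number 1 and 6.1.2 for number 2, per the file headers) on mm10, and were neither normalized nor corrected for free RNA. The labels name 10x 3′ v3 chemistry and the methods v3.1. Aggregated matrices of the same cells were not used. The members and all lists were chosen with earlier results of these data known.

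Cells with 1000 to 4500 detected genes were integrated across libraries and clustered in Seurat 5.3.0 (2000 variable genes, 20 principal components, resolution 0.4). Germ-like cells were clustered again without the members. A stage kept its name with a positive marker score, at least 3 detected markers and a median of at most 20% mitochondrial UMIs. A cluster was left unnamed if 3 or more of its 10 leading genes were mitochondrial. It was also left unnamed if more of its leading genes belonged to another marker list than to its own. UMIs were summed per library and stage, so that a replicate is a library, and CPM are UMIs per 1000000 of those sums. Steps between stages were fitted in 1 edgeR 4.0.16 quasi-likelihood model with library as a term, and genotype within each stage in a model without a block. Threshold was an adjusted p of 0.05 over all genes tested, and low counts were filtered by edgeR's default. The fits of the steps, of genotype within each stage and of germ-like against Sertoli-like cells were tested on simulated counts first. The other fits were not.

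Partner genes were named as the 3 higher and 3 lower with the largest change at each step, profile matches as the 3 highest correlations of log2(CPM + 1) centred within library among genes of at least 10 CPM (1 match of Sohlh2 is not reported here), and in the genotype comparison the member with the largest change per stage. Samples of the same replicate number deviated together (correlation 0.536 over 11410 genes, which with 2 pairs is 1 value by construction), and nothing in the labels says what the number marks. Alternatives were DESeq2 1.42.0 and its size factors, no filter on low counts, no integration, the members kept in the clustering, no upper limit on genes, below 10% mitochondrial UMIs, resolution 0.8, the highest 5% of doublet scores left out, the replicate block and each library left out. R 4.3.3, Python 3.11.15 and scanpy 1.11.5 were used. Intervals and floors (3 counts) cover counting error only.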

Additional observations from a re-analysis of the deposited data

Results flagged for a closer look

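The level of Id4 was lower in both control libraries and higher in both Sox17-cKO libraries in the preleptotene stage than in late differentiating spermatogonia, on very few UMIs. In control 1 and control 2 it went from 3.20 and 3.12 CPM to 1.02 and 2.73 CPM, and in Sox17-cKO 1 and 2 from 3.14 and 0.641 CPM to 7.90 and 1.56 CPM. The fitted difference between the steps was 1.81 ± 1.22 on the log2 scale (unadjusted p = 0.148, adjusted p = 1, edgeR quasi-likelihood test), so it did not pass the threshold. The levels rest on 7, 6, 6 and 1 UMIs in late differentiating spermatogonia and on 1, 5, 15 and 2 UMIs in the preleptotene stage, in part under the floor of 3 counts, so no direction is read from them.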

How the results depend on the processing

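Over 45 member and step pairs tested, 30 passed the threshold. Under the alternatives these gave 363 values, of which 355 kept direction and call, 8 lost the call and none changed sign. The lost calls were those of Sohlh1 and Dmrt1 at the first step, Dmrt1 at the second and Dmrtb1 from preleptotene to leptotene and zygotene cells, given above in part. Dmrt1 at the second step also lost its call without integration (-0.17), without the upper limit on detected genes (-0.13) and without the filter on low counts (-0.23). Counts of members past the threshold under an alternative numbered 162. They include the genotype comparisons, where the reported count was 0 and a count of 0 was taken as the same. Of the 162 counts, 161 were the same as or within 1.5 times the reported count. The exception was the step into pachytene cells without integration, where 5 members passed in place of 3. Without integration control 2 and Sox17-cKO 2 had only 14 and 13 leptotene and zygotene cells, against 212 and 180 with it. They had 8 and 7 early differentiating spermatogonia, against 53 and 85, so values of that setting rest on few cells there. The cause of the exception was not tested.

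Genotype differences, none of which had a call, changed sign in these cases. Without integration Lin28a in early differentiating spermatogonia was -0.30. Without the upper limit on detected genes Dmrt1 in pachytene cells was -0.64 and Nanos2 over all staged germ cells 0.065. With each library left out in turn, Nanos2 in undifferentiated spermatogonia ranged from -1.59 to 0.38, Sohlh1 in the preleptotene stage from -0.060 to 0.78, Dmrt1 in pachytene cells from -0.043 to 2.06 and Nanos2 over all staged germ cells from -1.51 to 0.22.

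With the replicate number as a block, 0 members passed the threshold in the genotype comparison of any stage, as without it. Nanos2 in undifferentiated spermatogonia was -0.84 with the block. The block called between 3 and 26 genes of all tested in a comparison, where the fit without it called none. Without integration no cluster was named preleptotene, so the steps into and out of that stage had no value, and at resolution 0.8 no cluster was named early differentiating spermatogonia, so the first and second had none. All-gene medians moved by -0.12 at the third step without the upper limit and by 0.30 in germ-like against Sertoli-like cells without the filter on low counts.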

Other observations

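The unnamed cluster of 1065 germ-like cells whose markers lay between early and late differentiating spermatogonia held intermediate values for some members and not for others. Lin28a was at 11.4, 3.75, 9.37 and 12.7 CPM and Sall4 at 41.2, 20.02, 39.9 and 26.9 CPM in the control and then the Sox17-cKO libraries, each below the early and above the late differentiating level of the same library. Sohlh1, at 138, 178, 131 and 260.1 CPM, lay between both stages too. Dmrtb1 was at 129.7, 144, 136.5 and 124 CPM, which overlapped its late differentiating level. Dmrt1 was at 254, 281, 253 and 308 CPM. In control 1 and Sox17-cKO 1 this was above its early differentiating level of 228 and 235 CPM. In control 2 and Sox17-cKO 2 it was below that level, at 335 and 352 CPM.

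A second unnamed cluster, of 586 cells led by Esx1, had 53.1, 62.3, 50.01 and 46.8 CPM of Dmrtb1, with Dmrt1 at 169.6, 203, 184 and 238 CPM and Sohlh1 at 63.4, 119, 68.7 and 120.3 CPM. In every library its Dmrtb1 lay between the late differentiating and the preleptotene level. Nanos2 had no UMI in any of the unnamed clusters.

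A cluster of 915 cells led by mitochondrial genes (median 40.7% mitochondrial UMIs, median depth 3069 UMIs) combined values that no named stage showed together. Zbtb16 was at 67.0, 103, 93.3 and 162 CPM and Lin28a at 20.9, 35.7, 45.03 and 53.3 CPM, whereas Nanos3 had 2, 0, 9 and 1 UMIs and Id4 11, 0, 20 and 5 UMIs (12.1, 0, 12.9 and 11.6 CPM). Over the libraries Zbtb16 averaged 13.04, 27.8 and 7.92 CPM and Sohlh1 56.0, 284 and 31.2 CPM in the other unnamed clusters, of 876, 488 and 225 cells.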
